A study of Mus musculus with 22 samples.

Results

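The genes of the proteasome, the protease complex that destroys proteins tagged with ubiquitin, were followed in mouse back skin over the first hair growth and the first resting phase of the hair follicles. The members were the probe sets that the platform annotation pairs with exactly 1 gene whose symbol begins with Psma, Psmb, Psmc, Psmd, Psme or Psmf, apart from the interferon-induced subunits Psmb8, Psmb9 and Psmb10. Of the 12422 probe sets that are not array controls, 50 met this rule, and they belong to 39 of the 8251 genes on the array that a probe set names alone. Of these, 41 probe sets of 35 genes were bright enough to be tested, among the 6211 tested in all. No Psmf1 probe set was found, and the Psme2 probe sets are paired with more than 1 gene and so are not members.

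RNA of back skin was hybridised to 22 single-colour arrays, 1 sample per array. At postnatal day 6 (P6) there were 5 arrays of DN-CLIM skin and 5 of WT skin, at P14 there were 3 and 3, and at P23 there were 3 and 3. DN-CLIM skin came from K14-DN-Clim transgenic mice, whose transgene uses the keratin 14 promoter, active in basal keratinocytes, to make dominant-negative CLIM (an Ldb cofactor that blocks the normal ones), and WT skin came from wild-type littermates, all of the CB6F1 strain. Follicles grow at P6 and P14 and rest in their first telogen at P23, per the series' design text. The design text gives 3 to 5 mice per genotype and age, but which mouse or mice gave each array is not in the labels, so p-values measure the spread between arrays, which may be in part technical. The promoter is active in basal keratinocytes, while the RNA is that of whole back skin with its dermis, fat and muscle. No probe set is known from the sources used here to read the transgene, so its level does not check the labels. In whole skin, fewer cells of a type and less RNA per cell cannot be told apart.

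The proteasome has a hollow core of stacked rings, with outer rings of alpha subunits that gate the entrance and inner rings of beta subunits, of which Psmb5, Psmb6 and Psmb7 cut the substrate. A regulatory particle caps the core. Its base holds a ring of ATPases (the Psmc genes) that unfold the substrate, and its lid removes ubiquitin. Subunits are needed in fixed proportions, and in other mammalian cells the transcription factor NRF1, the product of Nfe2l1, is known to raise their genes together when proteasomes are blocked.

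Promoter windows were read because the subunit genes are known as a group with shared control, and they are shown for 3 genes that fell at P23 (Psmd4, Psmc6, Psmb6) and for 3 with another pattern (Psma3, Psmd6, Psmb5). Of the 39 member genes, 33 had a window in the RefSeq table of assembly GRCm38.p6, which runs from 250 bases before a transcript start to 50 bases after it, and together they had 36 windows. Capitals mark each match, on either strand, to CCAAT (the motif bound by NF-Y), CCGGAA (the core motif of ETS factors) or TGACNNNGC (the antioxidant response element, bound by NRF1 and NRF2). The windows lie at chr3:95042565-95042864 (minus strand), chr14:45329574-45329873 (plus strand), chr11:70525107-70525406 (plus strand), chr12:70974373-70974672 (plus strand), chr14:14120896-14121195 (minus strand) and chr14:54617946-54618245 (minus strand), and are given 5′ to 3′ along the gene.
Psmd4: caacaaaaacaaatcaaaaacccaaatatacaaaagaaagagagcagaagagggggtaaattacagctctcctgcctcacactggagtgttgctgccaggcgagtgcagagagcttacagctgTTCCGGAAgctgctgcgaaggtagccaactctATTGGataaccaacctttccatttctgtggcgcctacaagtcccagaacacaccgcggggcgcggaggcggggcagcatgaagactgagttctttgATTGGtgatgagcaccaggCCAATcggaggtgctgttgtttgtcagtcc
Psmc6: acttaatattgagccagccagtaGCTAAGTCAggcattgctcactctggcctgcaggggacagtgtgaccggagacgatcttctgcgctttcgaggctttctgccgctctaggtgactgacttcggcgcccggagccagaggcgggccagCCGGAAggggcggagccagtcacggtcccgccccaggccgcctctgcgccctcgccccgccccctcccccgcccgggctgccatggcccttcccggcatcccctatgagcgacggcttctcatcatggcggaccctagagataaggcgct
Psmb6: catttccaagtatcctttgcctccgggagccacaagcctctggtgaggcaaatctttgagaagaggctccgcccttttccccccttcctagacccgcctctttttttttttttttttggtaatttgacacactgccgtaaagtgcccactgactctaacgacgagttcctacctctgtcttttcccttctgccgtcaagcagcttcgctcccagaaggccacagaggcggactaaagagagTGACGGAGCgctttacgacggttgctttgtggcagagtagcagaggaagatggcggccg
Psma3: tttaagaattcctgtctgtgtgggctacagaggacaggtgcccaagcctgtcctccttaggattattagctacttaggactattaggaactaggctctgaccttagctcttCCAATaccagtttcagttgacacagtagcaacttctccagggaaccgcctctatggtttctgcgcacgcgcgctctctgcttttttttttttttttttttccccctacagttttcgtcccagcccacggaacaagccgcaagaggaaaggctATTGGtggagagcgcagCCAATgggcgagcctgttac
Psmd6: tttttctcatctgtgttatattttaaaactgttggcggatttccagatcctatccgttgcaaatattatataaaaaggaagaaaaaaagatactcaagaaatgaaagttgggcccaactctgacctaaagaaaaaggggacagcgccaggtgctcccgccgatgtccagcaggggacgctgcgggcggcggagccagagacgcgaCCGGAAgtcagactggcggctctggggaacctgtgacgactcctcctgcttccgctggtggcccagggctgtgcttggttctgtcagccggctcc
Psmb5: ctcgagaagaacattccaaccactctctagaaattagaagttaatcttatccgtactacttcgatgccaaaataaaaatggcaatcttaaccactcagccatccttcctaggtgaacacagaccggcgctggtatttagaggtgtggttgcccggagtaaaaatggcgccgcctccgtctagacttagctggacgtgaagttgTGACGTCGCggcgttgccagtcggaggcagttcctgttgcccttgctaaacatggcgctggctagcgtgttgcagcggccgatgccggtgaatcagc

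CCGGAA was found in 20 of the 36 windows of the members (55.6%), against 27.0% of the 5124 windows of genes with a tested probe set and 14.9% of all 32851 windows. In Psmd4 it matches on both strands, the matches overlapping, with the first base 127 bases before the start, in Psmc6 the match lies 100 bases before the start, and in Psmd6 it lies 45 bases before the start. CCAAT was found in 38.9% of the members' windows, against 36.9% of the windows of genes with a tested probe set and 37.4% of all. TGACNNNGC was found in 16.7% of the members' windows, against 14.1% and 12.4%, and Psmb6 and Psmb5 have it 9 and 47 bases before the start. Psmc6 has it on the opposite strand, with the first base 227 bases before the start. No 2 different motifs overlapped in these windows. CCGGAA was in 8 of 13 windows (61.5%) of the genes that fell at P23 in all the comparisons given below, against 9 of 19 windows (47.4%) of the other tested member genes. A match is a description of letters and says nothing of binding in this skin.

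The arrays had been scaled by the authors to one trimmed mean signal, and their median log2 signals ranged from 7.56 to 7.81. The epidermal and dermal markers Krt1, Krt10, Lor, Col1a1 and Col3a1 each had a tested probe set, whereas the Krt5 and Krt14 probe sets, which mark basal keratinocytes, fell below the brightness limit. DN-CLIM P6 replicate 5 stood apart, with the lowest mean correlation with the other arrays of its group (r = 0.933 across probe sets). The other DN-CLIM P6 arrays were at 0.943 to 0.947, and the highest value of any group was 0.972, at P23. The 3′ to 5′ signal ratio of the Actb control probe sets, a measure of RNA quality, ranged from 1.131 to 1.239 in DN-CLIM skin and from 1.028 to 1.192 in WT skin at P23, and from 1.253 to 1.338 in DN-CLIM skin and 1.204 to 1.314 in WT skin at P14. At P6 it ranged from 1.166 to 1.474 in DN-CLIM skin and from 1.076 to 1.42 in WT skin. Replicate 5 of DN-CLIM skin had the highest ratio of the 22 arrays for Actb (1.474) and for Gapdh (1.214). The part of RNA quality in the results was not tested.

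Of the 41 tested probe sets, the mean log2 signal over the 22 arrays ran from 8.32 (Psmc3 100225_f_at) to 12.40 (Psmc6). The brightest member that was not tested, Psmd10, had a mean of 6.72, and the limit was 7.67. The genes with no tested probe set were the ATPase gene Psmc4, the base subunit gene Psmd2, the assembly chaperone gene Psmd10 and Psmc3ip, which the rule finds by its name but which encodes a recombination protein. Further probe sets of Psmb1, Psmb4 (2 of them), Psmc5 and Psme1 were also below the limit, beside tested probe sets of the same genes. Psme3ip1 encodes a protein that binds Psme3 and is likewise no subunit.

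DN-CLIM skin was compared with WT skin at each age, which asks whether blocking CLIM in keratinocytes changes the subunit genes. No member passed the threshold at any age. Of all tested probe sets 0.0322% were called at P6, 0.0644% at P14 and 0.161% at P23, and 0.177% for the mean of the 3 ages, so that a count of 0 among 41 lies near the background. At an unadjusted p under 0.05 in limma there were 1 member at P6, 0 at P14, 2 at P23 and 1 for the mean of the ages, with 8.18%, 6.26%, 4.57% and 7.02% of all tested probe sets in the same order. The median log2 difference of the 41 probe sets, DN-CLIM minus WT, came to -0.01 at P6, beside -0.01 for all tested probe sets. It came to -0.08 at P14 and 0.03 at P23, where that of all was 0.00.

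The intervals limit how large a difference could be. The 95% interval of the difference lay within a 2-fold change for 41 of the 41 probe sets at P6 and for 40 at P14 and at P23, where Psmd5 was the exception. It lay within a 1.5-fold change for 35, 34 and 37 at the 3 ages, and for 40 when the ages were averaged. Psmd14, the lid enzyme that cuts ubiquitin chains from substrates, had the smallest p at P6. Its log2 signals there were 9.73, 9.95, 9.76, 9.90 and 10.01 in DN-CLIM skin and 9.96, 10.19, 10.01, 10.27 and 10.16 in WT skin, and these ranges overlapped. The difference was -0.25 (95% interval -0.46 to -0.04, adjusted p = 0.56) in limma, and -0.18 (95% interval -0.33 to -0.04, adjusted p = 0.511) over the 3 ages. Next to it over the 3 ages in limma were Psme1 (0.14, adjusted p = 0.768) and Psmb5 160559_at (0.17, adjusted p = 0.768).

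Psmb6, the catalytic subunit with caspase-like activity, had the smallest p at P23. Its log2 signals were 9.88, 10.50 and 10.54 in DN-CLIM skin and 10.57, 10.74 and 10.73 in WT skin. All 3 DN-CLIM arrays lay below the 3 WT arrays, by a wide margin for replicate 1 and a narrow one for the others. The difference was -0.37 (95% interval -0.66 to -0.09, adjusted p = 0.705) in limma, and -0.16 without DN-CLIM P23 replicate 1. It was 0.01 at P6 and -0.01 at P14. The groups did not overlap for 6 members at P14, all lower in DN-CLIM skin, with 8.37% of all tested probe sets apart in that direction and 6.84% in the other. At P23 they did not overlap for 4 lower and 1 higher, where the shares over all were 7.21% lower and 7.71% higher.

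**Figure D1:**
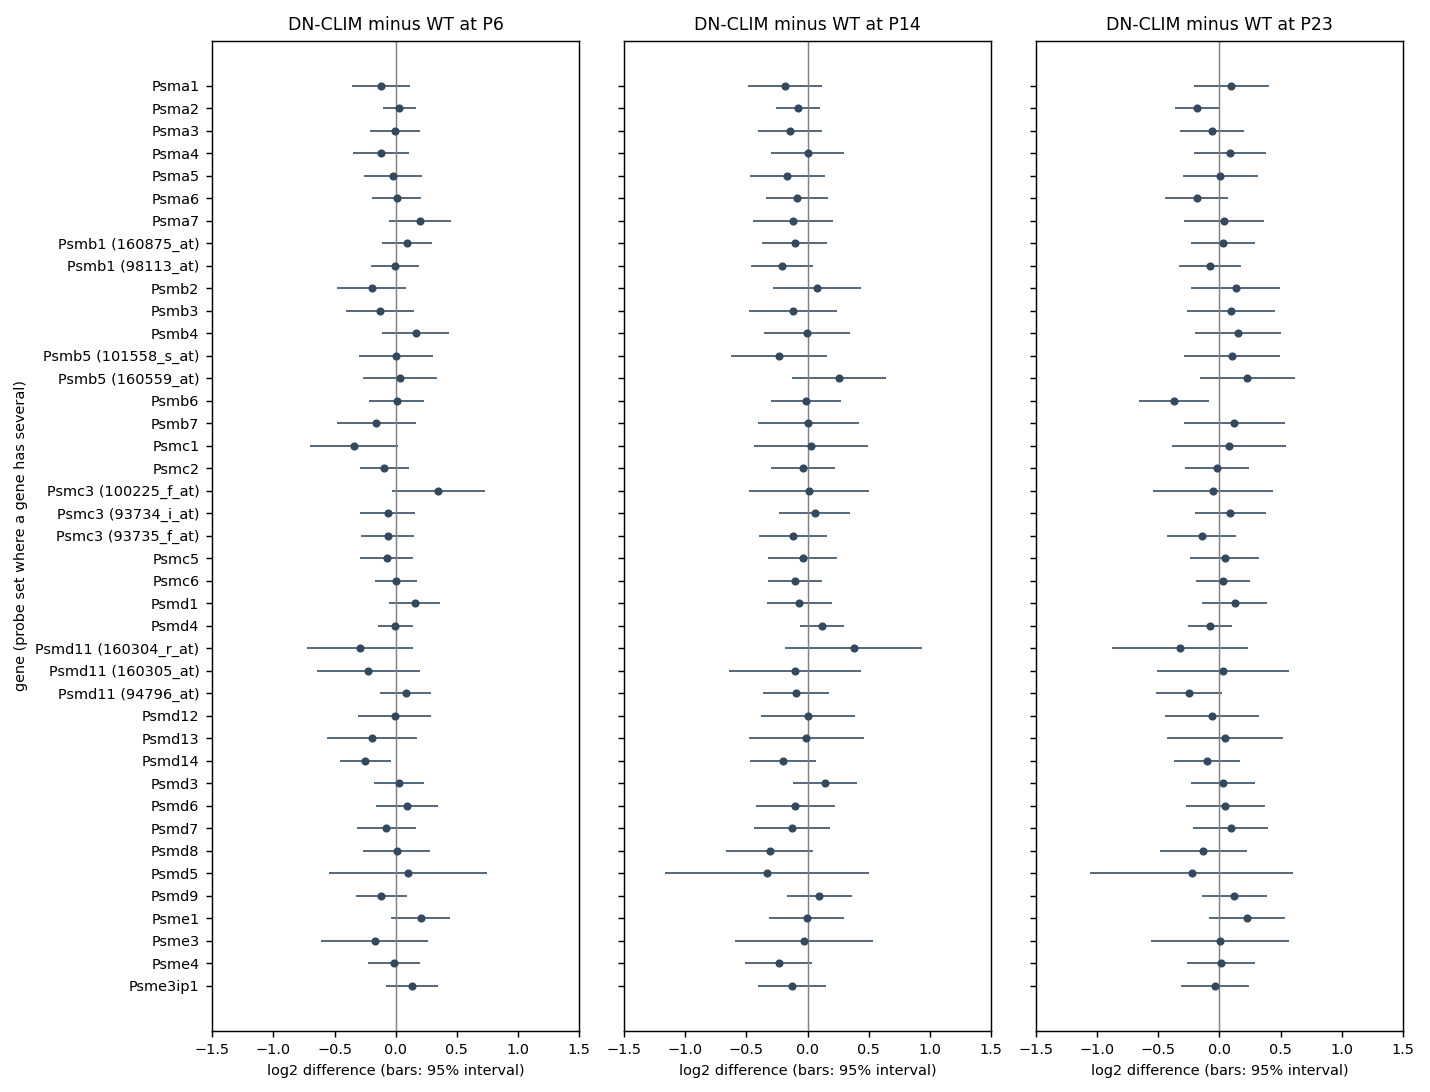
Log2 difference of each of the 41 tested proteasome probe sets, DN-CLIM minus WT, with its 95% interval, at P6 (5 arrays per genotype), P14 and P23 (3 each). The points lie close to 0 at each age, and the interval of Psmd5 is the one that reaches beyond a 2-fold change at P14 and P23.

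Next to these at P6 in limma were Psmc1 (-0.34, 95% interval -0.70 to 0.02, adjusted p = 0.637) and Psmc3 100225_f_at (0.35, 95% interval -0.03 to 0.73, adjusted p = 0.649). The smallest p at P14 in limma belonged to the lid gene Psmd8 (-0.31, 95% interval -0.67 to 0.04, adjusted p = 0.822), the activator gene Psme4 (-0.24, 95% interval -0.51 to 0.04, adjusted p = 0.824) and Psmb1 98113_at (-0.21, 95% interval -0.46 to 0.05, adjusted p = 0.841). After Psmb6 at P23 came, in limma, the alpha ring gene Psma2 (-0.18, 95% interval -0.36 to -0.01, adjusted p = 0.999) and the lid gene Psmd11 at 94796_at (-0.25, 95% interval -0.52 to 0.02, adjusted p = 0.999). None of these passed with any 1 array left out. The difference of Psmc1 was -0.11 without DN-CLIM P6 replicate 5, that of Psmc3 100225_f_at 0.20 without WT P6 replicate 1, that of Psme4 -0.13 without WT P14 replicate 3 and that of Psmd11 -0.14 without WT P23 replicate 2.

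Between P6 and P14, both within follicle growth, few members changed. In DN-CLIM skin 1 member rose and 1 fell, with 12.1% of all tested probe sets called higher and 14.7% called lower. In WT skin 1 rose and none fell at the threshold, with 9.43% of all called higher and 11.3% lower. These counts lie below the background. At an unadjusted p under 0.05 in limma there were 6 members in DN-CLIM skin and 6 in WT skin, with 38.6% of all tested probe sets in DN-CLIM skin and 32.7% in WT skin. The median log2 change was -0.01 in DN-CLIM skin, beside 0.00 for all tested probe sets, and 0.07 in WT skin, beside -0.01. The DN-CLIM count of 2 became 4 without P6 replicate 4 or without P6 replicate 5, and 1 without P14 replicate 1 or without P14 replicate 2. Without P6 replicate 5 the added calls were Psmd4, higher by 0.23 (adjusted p = 0.0285 in limma), and Psma4, lower with -0.35 (adjusted p = 0.00539 in limma). With all arrays Psma4 was at -0.22 (adjusted p = 0.215) in DN-CLIM skin and -0.34 (adjusted p = 0.0656) in WT skin in limma, and passed in neither. Psmd11 160304_r_at was at 0.63 (adjusted p = 0.0553 in limma) in DN-CLIM skin and did not pass. The WT count of 1 became 0 without P6 replicate 1, P6 replicate 5, P14 replicate 1 or P14 replicate 3. With P6 arrays 1 to 3 alone, a choice made after seeing the data, 6 members passed in DN-CLIM skin and 8 in WT skin, and with P6 arrays 4 and 5 alone 8 passed in DN-CLIM skin and 0 in WT skin.

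Psme1, a subunit of the activator that opens the core without ATP, fell in DN-CLIM skin. Its log2 signals at P14 were 10.02, 10.16 and 10.11 in DN-CLIM skin, against 10.68, 10.67, 10.67, 10.30 and 10.81 at P6. Each P14 array lay below each P6 array. The change was -0.52 (SE 0.13, adjusted p = 0.00607) in limma, and it passed with any 1 array left out. In WT skin its signals were 10.22, 10.06 and 10.05 at P14, against 10.42, 10.73, 10.59, 10.10 and 10.27 at P6. These overlapped, and the change of -0.31 (SE 0.13, adjusted p = 0.102) did not pass in limma.

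Psmc1, an ATPase of the base, rose in DN-CLIM skin by 0.65 (SE 0.20, adjusted p = 0.0211) in limma. Its log2 signals were 10.36, 10.22 and 10.09 at P14, against 9.72, 9.75, 9.82, 9.93 and 8.67 at P6, where replicate 5 lay more than 1 log2 unit below the others. Without that array the change was 0.42, and it still passed, with adjusted p = 0.0181 in limma. It did not pass at 0.0836 without DN-CLIM P14 replicate 1 and 0.0615 without DN-CLIM P14 replicate 2. Psmd8, a lid subunit, rose in WT skin by 0.47 (SE 0.15, adjusted p = 0.032) in limma. Its log2 signals were 11.08, 11.11 and 10.94 at P14, against 10.41, 10.74, 10.77, 10.43 and 10.51 at P6. Its adjusted p was 0.0698 without WT P6 replicate 1, 0.064 without WT P6 replicate 4, 0.0553 without WT P6 replicate 5, 0.1 without WT P14 replicate 1, 0.109 without WT P14 replicate 2 and 0.0552 without WT P14 replicate 3, so 6 of 8 runs lost the call.

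At P23, in telogen, many proteasome genes were lower than during hair growth, and many were not. Against P14, 17 of the 41 probe sets were lower in DN-CLIM skin, 1 was higher and 23 did not pass, with 27.2% of all tested probe sets called lower and 27.1% higher. In WT skin 20 were lower, 2 were higher and 19 did not pass, with 27.1% of all called lower and 27.0% higher. The median log2 change was -0.33 in DN-CLIM skin and -0.34 in WT skin, beside 0.00 for all tested probe sets in both. Among the 1884 tested probe sets with a mean log2 signal of 10 or more, a limit chosen after the values were seen, 36.3% were called lower and 25.6% higher in DN-CLIM skin, and 38.1% lower and 25.5% higher in WT skin. Their median log2 change was -0.10 in DN-CLIM skin and -0.11 in WT skin. The members' shares, 41.5% in DN-CLIM skin and 48.8% in WT skin, lie closer to these than to the shares over all probe sets. With each array centred on its median, 18 members were lower and 1 higher in DN-CLIM skin and 23 were lower and 1 higher in WT skin. That centring shifted the median of all tested probe sets in WT skin to -0.13, and 60.7% of all calls there were then lower, beside 50.1% as deposited.

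**Figure D2:**
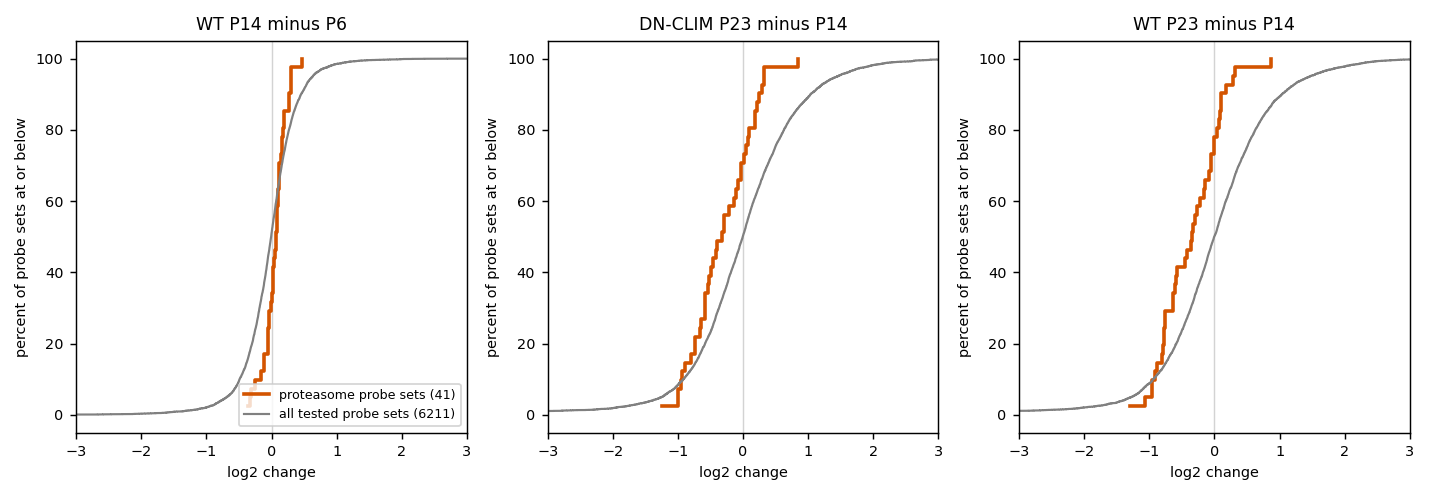
Percent of probe sets at or below each log2 change, for the 41 tested proteasome probe sets (orange) and all 6211 tested probe sets (grey), in WT skin P14 minus P6 and in DN-CLIM and WT skin P23 minus P14. The orange curve runs left of the grey one over most of its range in both P23 comparisons, with medians of -0.33 and -0.34 beside 0.00.

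Against P6 the counts were close to those against P14, and these values share the P23 arrays with those above. There were 18 lower, 1 higher and 22 that did not pass in DN-CLIM skin, with 28.2% of all called lower and 26.7% higher. There were 18 lower, 1 higher and 22 that did not pass in WT skin, with 28.3% of all called lower and 25.7% higher. The median log2 change was -0.28 in DN-CLIM skin and -0.26 in WT skin, where those of all tested probe sets were 0.00 in DN-CLIM skin and -0.03 in WT skin. Among the bright probe sets 40.7% were called lower and 23.2% higher in DN-CLIM skin and 39.8% lower and 22.8% higher in WT skin, close to the members' share of 43.9% lower in each genotype. The median log2 change of these bright probe sets was -0.15 in DN-CLIM skin and -0.14 in WT skin. With DN-CLIM P6 replicate 5 left out, 17 members were lower and 3 higher in DN-CLIM skin. With arrays centred on their medians 23 members were lower in DN-CLIM skin and 20 in WT skin, and of all calls 64.5% in DN-CLIM skin and 61.4% in WT skin were then lower, beside 51.4% in DN-CLIM skin and 52.4% in WT skin as deposited. A set of 16 probe sets of 16 genes was lower in all 4 comparisons of P23 with an earlier age, as were 17.6% of all tested probe sets, and this count is a description because the comparisons share arrays. Of these 16, 11 kept the call in each of the 28 runs that left out 1 array. The other 5, Psma5, Psmb3, Psmc2, Psmd11 and Psmd13, are given below with the arrays that decide their calls. P6 arrays 4 and 5 were also used alone for P6, a choice made after seeing the data. Of the 11, Psmd7 in DN-CLIM skin (adjusted p = 0.0669 in limma) and Psmd8 in WT skin (0.0567) then lost the call against P6. Psmc2 (0.133) and Psmd13 (0.499) lost it in DN-CLIM skin.

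**Figure D3:**
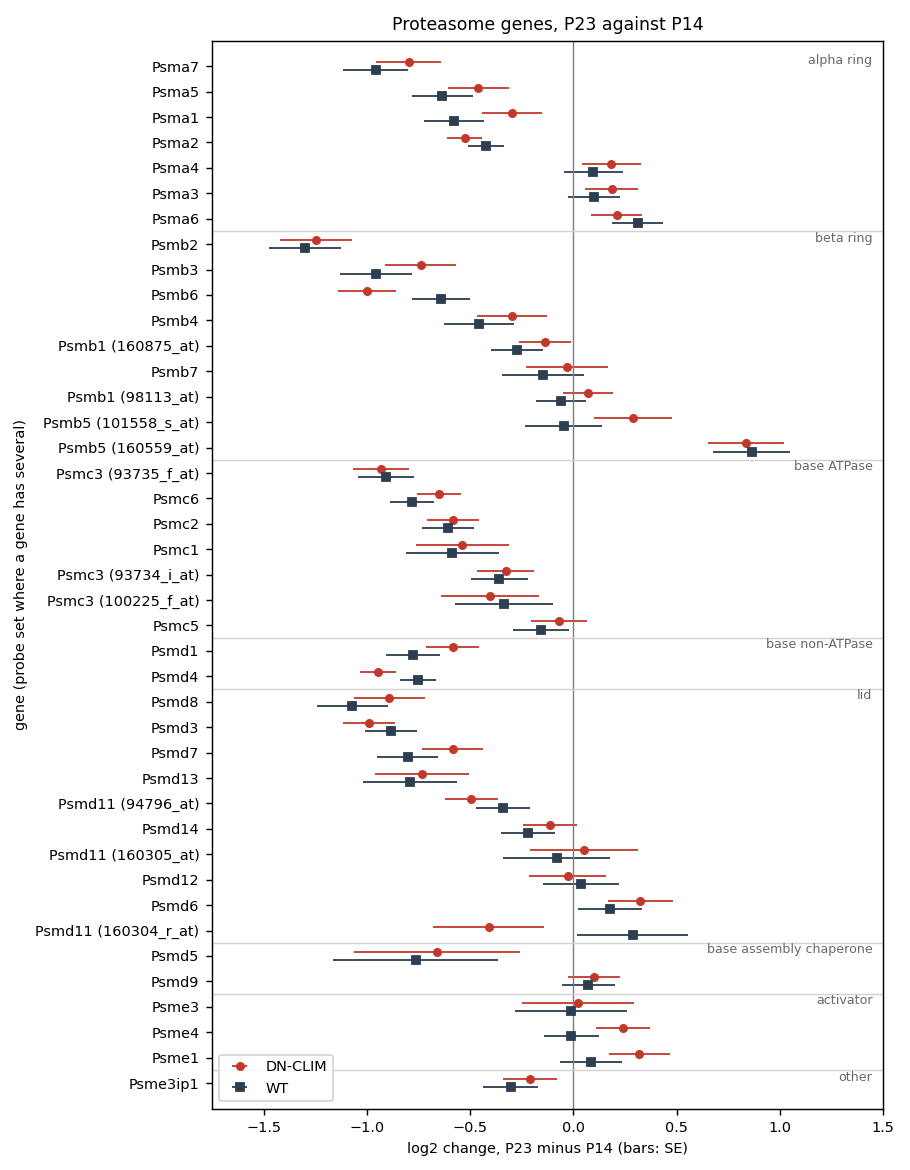
Log2 change, P23 minus P14, of the 41 tested proteasome probe sets by role, with DN-CLIM skin (red circles) above WT skin (dark squares) and bars for the SE (3 arrays per group). Each role but the activators holds points on the left, Psmb2 has the largest fall, and Psmb5 160559_at lies alone at the far right.

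In the alpha ring, Psma2, Psma5 and Psma7 were lower in all 4 comparisons, and Psma3, Psma4 and Psma6 were not. Psma7 changed most. At P6, Psma7 had log2 signals of 11.15, 11.14, 11.33, 11.35 and 12.05 in DN-CLIM skin and 11.05, 11.16, 11.11, 11.36 and 11.37 in WT skin. Its P14 arrays were at 11.43, 11.38 and 11.37 in DN-CLIM skin and 11.54, 11.53 and 11.46 in WT skin. Its P23 arrays were at 10.55, 10.63 and 10.61 in DN-CLIM skin and 10.53, 10.63 and 10.50 in WT skin. The P23 arrays of each genotype lay below all its arrays at P14 and P6. The change against P14 was -0.80 (SE 0.16, adjusted p = 0.000208) in DN-CLIM skin and -0.96 (SE 0.16, adjusted p = 2.56e-05) in WT skin in limma, and against P6 it was -0.81 in DN-CLIM skin and -0.66 in WT skin. Psma7 fell 1.74-fold in DN-CLIM skin and 1.94-fold in WT skin against P14.

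Psma5 fell by less. Against P14 its change was -0.46 (SE 0.15, adjusted p = 0.0119) in DN-CLIM skin and -0.63 (SE 0.15, adjusted p = 0.00102) in WT skin in limma, and against P6 it was -0.65 in DN-CLIM skin and -0.68 in WT skin. The DN-CLIM call against P14 had, in limma, adjusted p = 0.102 without DN-CLIM P23 replicate 1, where the change was -0.30. Psma2, whose errors were small, changed by -0.53 (SE 0.09, adjusted p = 2.02e-05) in DN-CLIM skin and -0.42 (SE 0.09, adjusted p = 0.000236) in WT skin against P14 in limma. Psma1 was lower in WT skin in both comparisons, by -0.58 against P14 and -0.50 against P6. The DN-CLIM values of -0.30 against P14 and -0.28 against P6 did not pass (adjusted p = 0.0908 and 0.0795 in limma).

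Psma3, a neighbour of these subunits in the same ring, passed nowhere. Its only probe set has an f in its name, which marks probes that may also match related transcripts. At P6, Psma3 had log2 signals of 12.08, 12.21, 12.15, 12.20 and 12.51 in DN-CLIM skin and 12.29, 12.57, 12.19, 12.06 and 12.07 in WT skin. Its P14 arrays were at 12.05, 12.18 and 12.06 in DN-CLIM skin and 12.30, 12.36 and 12.06 in WT skin. Its P23 arrays were at 12.13, 12.38 and 12.34 in DN-CLIM skin and 12.38, 12.36 and 12.29 in WT skin. The groups overlapped at each step. The change against P14 was 0.19 (SE 0.13, adjusted p = 0.225) in DN-CLIM skin and 0.10 (SE 0.13, adjusted p = 0.519) in WT skin in limma. Psma4 was at 0.18 in DN-CLIM skin and 0.10 in WT skin. Psma6 was called higher once, in WT skin against P14 (0.31, SE 0.12, adjusted p = 0.0362 in limma), with adjusted p of 0.0794 without WT P14 replicate 1, 0.0881 without WT P14 replicate 2, 0.0542 without WT P14 replicate 3, 0.127 without WT P23 replicate 1 and 0.0653 without WT P23 replicate 2, and with arrays centred on their medians the adjusted p was 0.294.

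The beta ring held the largest fall, and the only probe set that was higher in both genotypes. Psmb2, a structural subunit of the ring, fell 2.37-fold in DN-CLIM skin and 2.47-fold in WT skin against P14. At P6, Psmb2 had log2 signals of 11.79, 11.64, 11.60, 11.81 and 11.06 in DN-CLIM skin and 11.85, 11.70, 11.55, 11.87 and 11.91 in WT skin. Its P14 arrays were at 11.84, 11.67 and 11.57 in DN-CLIM skin and 11.64, 11.51 and 11.70 in WT skin. Its P23 arrays were at 10.79, 10.46 and 10.09 in DN-CLIM skin and 10.08, 10.43 and 10.43 in WT skin. All P23 arrays lay below all arrays of the earlier ages in both genotypes, and the DN-CLIM array at 11.06 is P6 replicate 5. The change against P14 was -1.25 (SE 0.17, adjusted p = 3.52e-06) in DN-CLIM skin and -1.30 (SE 0.17, adjusted p = 1.87e-06) in WT skin in limma, and against P6 it was -1.13 in DN-CLIM skin and -1.47 in WT skin.

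Psmb6, with the caspase-like active site, fell 2-fold in DN-CLIM skin and 1.56-fold in WT skin against P14. At P14 its log2 signals were 11.27, 11.34 and 11.31 in DN-CLIM skin and 11.25, 11.26 and 11.46 in WT skin, beside the P23 values given above. The change was -1.0 (SE 0.14, adjusted p = 3e-06) in DN-CLIM skin and -0.64 (SE 0.14, adjusted p = 0.00049) in WT skin in limma, and against P6 it was -1.08 in DN-CLIM skin and -0.70 in WT skin. The difference of the change between the genotypes was -0.36 against P14, with adjusted p = 0.985 in limma, and -0.14 without DN-CLIM P23 replicate 1. Psmb3, another structural subunit, changed by -0.74 (SE 0.17, adjusted p = 0.00103) in DN-CLIM skin and -0.96 (SE 0.17, adjusted p = 7.48e-05) in WT skin against P14 in limma. Against P6 it changed by -0.44 in DN-CLIM skin and -0.66 in WT skin, and there the DN-CLIM call (adjusted p = 0.0211 in limma) had 0.058 without DN-CLIM P6 replicate 1, 0.0564 without DN-CLIM P6 replicate 2, 0.0874 without DN-CLIM P23 replicate 1 and 0.0746 without DN-CLIM P23 replicate 3. With P6 represented by arrays 4 and 5 alone, a choice made after seeing the data, its DN-CLIM adjusted p was 0.836.

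Psmb7, the subunit with the trypsin-like active site, passed in none of the comparisons of P23. Its log2 signals at P23 were 10.63, 10.82 and 10.77 in DN-CLIM skin and 10.43, 10.66 and 10.76 in WT skin. At P14 they were 10.77, 10.91 and 10.64 in DN-CLIM skin and 10.77, 10.83 and 10.70 in WT skin. These overlapped, and the change was -0.03 (SE 0.20, adjusted p = 0.906) in DN-CLIM skin and -0.15 (SE 0.20, adjusted p = 0.55) in WT skin in limma. The probe set name carries an f, which marks probes that may also match related transcripts.

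The 2 tested probe sets of Psmb5, the subunit with the chymotrypsin-like active site, did not give the same answer. At 101558_s_at, whose name marks probes shared with other transcripts, the change against P14 was 0.29 (SE 0.19, adjusted p = 0.201) in DN-CLIM skin and -0.05 (SE 0.19, adjusted p = 0.846) in WT skin in limma. At the dimmer 160559_at the log2 signals at P23 were 9.14, 9.05 and 8.71 in DN-CLIM skin and 8.61, 8.86 and 8.76 in WT skin. At P14 they were 8.30, 8.11 and 7.98 in DN-CLIM skin and 8.21, 7.74 and 7.68 in WT skin. This probe set rose, by 0.84 (SE 0.19, adjusted p = 0.00066) in DN-CLIM skin and 0.86 (SE 0.19, adjusted p = 0.000481) in WT skin against P14 in limma, and also against P6 (0.69 in DN-CLIM skin and 0.50 in WT skin). The WT call against P6 had, in limma, adjusted p = 0.0676 without WT P23 replicate 2. At 101558_s_at, with DN-CLIM P6 replicate 5 left out, the DN-CLIM change against P6 was 0.36 with adjusted p = 0.0362 in limma, beside 0.21 and 0.295 with all arrays. The direction of Psmb5 is therefore uncertain.

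Psmb1 and Psmb4, both structural, passed in 1 comparison of P23 each. The name of the tested Psmb4 probe set also carries an f. Psmb1 160875_at passed once, as lower in DN-CLIM skin against P6 (-0.29, SE 0.11, adjusted p = 0.0381 in limma), with adjusted p of 0.0775 without DN-CLIM P6 replicate 1, 0.076 without DN-CLIM P6 replicate 3, 0.0656 without DN-CLIM P6 replicate 5, 0.126 without DN-CLIM P23 replicate 1 and 0.11 without DN-CLIM P23 replicate 3. Psmb1 98113_at was at 0.07 in DN-CLIM skin and -0.06 in WT skin against P14. Psmb4 passed once, in WT skin against P14 (-0.46, SE 0.17, adjusted p = 0.0277 in limma), with adjusted p of 0.0789 without WT P14 replicate 2, 0.0791 without WT P14 replicate 3, 0.0648 without WT P23 replicate 1, 0.0544 without WT P23 replicate 2 and 0.0561 without WT P23 replicate 3.

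**Figure D4:**
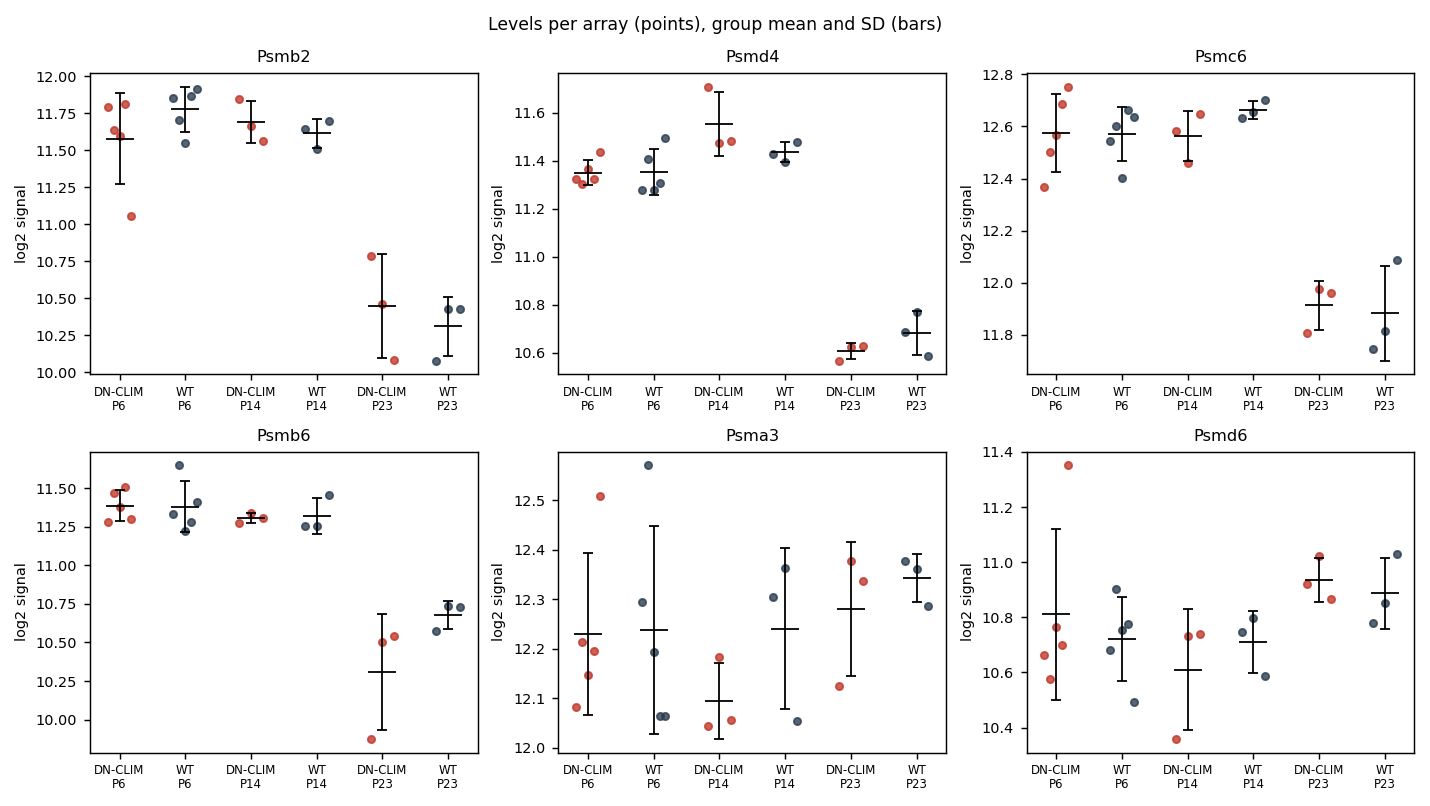
Log2 signal of Psmb2, Psmd4, Psmc6, Psmb6, Psma3 and Psmd6 on each of the 22 arrays, with the mean and SD of each group (DN-CLIM red, WT dark; 5 arrays per genotype at P6 and 3 at P14 and P23). The P23 arrays of Psmb2, Psmd4, Psmc6 and Psmb6 lie below all earlier arrays of the same genotype, whereas those of Psma3 and Psmd6 do not.

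Among the ATPases of the base, Psmc6 fell in both genotypes. At P6, Psmc6 had log2 signals of 12.37, 12.50, 12.57, 12.69 and 12.75 in DN-CLIM skin and 12.54, 12.60, 12.40, 12.66 and 12.64 in WT skin. Its P14 arrays were at 12.58, 12.46 and 12.65 in DN-CLIM skin and 12.63, 12.65 and 12.70 in WT skin. Its P23 arrays were at 11.81, 11.98 and 11.96 in DN-CLIM skin and 11.74, 11.81 and 12.09 in WT skin. The P23 arrays lay below all earlier arrays in both genotypes. The change against P14 was -0.65 (SE 0.11, adjusted p = 2.53e-05) in DN-CLIM skin and -0.78 (SE 0.11, adjusted p = 2.37e-06) in WT skin in limma, which is 1.57-fold in DN-CLIM skin and 1.72-fold in WT skin. Against P6 it was -0.66 in DN-CLIM skin and -0.69 in WT skin.

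Psmc2 was lower in all 4 comparisons, at -0.58 in DN-CLIM skin and -0.61 in WT skin against P14, and -0.35 in DN-CLIM skin and -0.42 in WT skin against P6. The DN-CLIM value against P6 had adjusted p = 0.0121 in limma and 0.0505 without DN-CLIM P23 replicate 1. Psmc1 was lower against P14, by -0.54 (SE 0.23, adjusted p = 0.0481) in DN-CLIM skin and -0.59 (SE 0.23, adjusted p = 0.0322) in WT skin in limma, and not against P6, where it was at 0.11 in DN-CLIM skin and -0.31 in WT skin. Without DN-CLIM P6 replicate 5 the DN-CLIM value against P6 was -0.12. In DN-CLIM skin each of the 6 runs that left out 1 array lost its call, with adjusted p of 0.134 without DN-CLIM P14 replicate 1, 0.0877 without DN-CLIM P14 replicate 2, 0.0553 without DN-CLIM P14 replicate 3, 0.131 without DN-CLIM P23 replicate 1, 0.0809 without DN-CLIM P23 replicate 2 and 0.0671 without DN-CLIM P23 replicate 3. In WT skin its adjusted p was 0.0689 without WT P14 replicate 1, 0.0851 without WT P14 replicate 2 and 0.157 without WT P23 replicate 1. Psmc5 was at -0.07 in DN-CLIM skin and -0.15 in WT skin against P14 and passed nowhere.

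The 3 tested probe sets of Psmc3 differed in size. At 93735_f_at, the brightest, the log2 signals at P23 were 10.09, 10.01 and 10.09 in DN-CLIM skin and 10.15, 10.27 and 10.21 in WT skin. At P14 they were 11.05, 11.10 and 10.83 in DN-CLIM skin and 11.10, 11.15 and 11.10 in WT skin. No P23 array reached the P14 arrays, and the change was -0.93 (SE 0.13, adjusted p = 5.25e-06) in DN-CLIM skin and -0.91 (SE 0.13, adjusted p = 7.29e-06) in WT skin in limma, and against P6 -0.92 in DN-CLIM skin and -0.84 in WT skin. At 93734_i_at the change against P14 was -0.33 (SE 0.14, adjusted p = 0.0509) in DN-CLIM skin and -0.36 (SE 0.14, adjusted p = 0.0332) in WT skin in limma, and the WT call had adjusted p of 0.0676 without WT P14 replicate 1, 0.113 without WT P14 replicate 2, 0.16 without WT P23 replicate 1 and 0.108 without WT P23 replicate 2. At 100225_f_at it was -0.40 in DN-CLIM skin and -0.33 in WT skin, which did not pass. The names of 93735_f_at and 100225_f_at carry an f, which marks probes that may also match related transcripts.

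Both tested base subunits without ATPase activity fell. Psmd4 is a receptor that binds ubiquitin chains. At P6, Psmd4 had log2 signals of 11.32, 11.31, 11.37, 11.32 and 11.44 in DN-CLIM skin and 11.28, 11.41, 11.28, 11.31 and 11.50 in WT skin. Its P14 arrays were at 11.71, 11.47 and 11.48 in DN-CLIM skin and 11.43, 11.40 and 11.48 in WT skin. Its P23 arrays were at 10.57, 10.63 and 10.63 in DN-CLIM skin and 10.69, 10.77 and 10.59 in WT skin. Within each genotype all P23 arrays lay below all earlier arrays. The change against P14 was -0.95 (SE 0.09, adjusted p = 9.14e-09) in DN-CLIM skin and -0.75 (SE 0.09, adjusted p = 2.5e-07) in WT skin in limma, the smallest adjusted p of any member in each genotype, and against P6 it was -0.74 in DN-CLIM skin and -0.67 in WT skin. Psmd1, a scaffold of the base, had log2 signals of 10.29, 10.58 and 10.36 in DN-CLIM skin and 10.10, 10.62 and 10.14 in WT skin at P23 and 11.16, 10.99 and 10.84 in DN-CLIM skin and 11.09, 10.93 and 11.17 in WT skin at P14. It changed by -0.59 (SE 0.13, adjusted p = 0.000587) in DN-CLIM skin and -0.78 (SE 0.13, adjusted p = 2.68e-05) in WT skin against P14 in limma, and by -0.79 in DN-CLIM skin and -0.76 in WT skin against P6.

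The lid divided. Psmd3, Psmd7, Psmd8, Psmd13 and Psmd11 at 94796_at were lower in all 4 comparisons, and Psmd6, Psmd12 and Psmd14 passed in none with all arrays. Psmd3, a structural lid subunit, had log2 signals of 10.62, 10.71 and 10.69 in DN-CLIM skin and 10.54, 10.66 and 10.73 in WT skin at P23. At P14 they were 11.63, 11.77 and 11.59 in DN-CLIM skin and 11.64, 11.37 and 11.56 in WT skin. The groups lay well apart, and the change was -0.99 (SE 0.13, adjusted p = 9.41e-07) in DN-CLIM skin and -0.88 (SE 0.13, adjusted p = 4.41e-06) in WT skin in limma, a fall of 1.99-fold in DN-CLIM skin and 1.84-fold in WT skin. Against P6 it was -0.81 in DN-CLIM skin and -0.81 in WT skin.

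Psmd8, which joins the lid late in its assembly in yeast, changed by -0.89 (SE 0.17, adjusted p = 0.000149) in DN-CLIM skin and -1.07 (SE 0.17, adjusted p = 1.79e-05) in WT skin against P14 in limma, and by -0.74 in DN-CLIM skin and -0.60 in WT skin against P6. Its log2 signals at P23 were 9.56, 9.83 and 10.13 in DN-CLIM skin and 9.84, 10.20 and 9.88 in WT skin. At P14 they were 10.81, 10.70 and 10.68 in DN-CLIM skin and 11.08, 11.11 and 10.94 in WT skin. The P23 arrays of both genotypes lay below those at P14. Psmd7, the inactive partner of the deubiquitinase Psmd14, changed by -0.59 (SE 0.15, adjusted p = 0.00223) in DN-CLIM skin and -0.80 (SE 0.15, adjusted p = 0.000103) in WT skin against P14 in limma. Psmd13 changed by -0.73 (SE 0.23, adjusted p = 0.00975) in DN-CLIM skin and -0.79 (SE 0.23, adjusted p = 0.00573) in WT skin against P14 in limma. Against P6 it changed by -0.60 in DN-CLIM skin and -0.85 in WT skin, where its DN-CLIM adjusted p was 0.016 in limma and 0.0698 without DN-CLIM P23 replicate 1.

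Psmd14, the deubiquitinase of the lid, was at -0.11 in DN-CLIM skin and -0.22 in WT skin against P14. Psmd6, another lid subunit, had higher values at P23 than at P14. At P6, Psmd6 had log2 signals of 10.66, 10.58, 10.76, 10.70 and 11.35 in DN-CLIM skin and 10.68, 10.90, 10.75, 10.77 and 10.49 in WT skin. Its P14 arrays were at 10.36, 10.73 and 10.74 in DN-CLIM skin and 10.75, 10.80 and 10.59 in WT skin. Its P23 arrays were at 10.92, 11.02 and 10.87 in DN-CLIM skin and 10.78, 10.85 and 11.03 in WT skin. The 3 DN-CLIM arrays at P23 lay above those at P14, while the WT arrays overlapped. The change was 0.33 (SE 0.16, adjusted p = 0.0841) in DN-CLIM skin and 0.18 (SE 0.16, adjusted p = 0.354) in WT skin in limma and did not pass. The DN-CLIM array at 11.35 is P6 replicate 5, and without it Psmd6 was higher in DN-CLIM skin at P23 against P6, by 0.26 with adjusted p = 0.0385 in limma, beside 0.13 and 0.467 with all arrays.

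Psmd11, a subunit that links lid and core, had 3 tested probe sets. At 94796_at, the brightest, the change against P14 was -0.49 (SE 0.13, adjusted p = 0.00286) in DN-CLIM skin and -0.34 (SE 0.13, adjusted p = 0.0314) in WT skin in limma, and against P6 it was -0.63 in DN-CLIM skin and -0.30 in WT skin. The WT call against P14 had adjusted p of 0.0614 without WT P14 replicate 1, 0.115 without WT P14 replicate 3, 0.0977 without WT P23 replicate 1 and 0.127 without WT P23 replicate 3. The WT call against P6 had 0.0891 without WT P6 replicate 2, 0.0599 without WT P6 replicate 5, 0.121 without WT P23 replicate 1 and 0.157 without WT P23 replicate 3. At 160305_at the change against P14 was 0.05 in DN-CLIM skin and -0.08 in WT skin, and at 160304_r_at -0.41 in DN-CLIM skin and 0.29 in WT skin, none of which passed. Psmd12 was at -0.03 in DN-CLIM skin and 0.04 in WT skin, on a probe set whose name carries an f.

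The chaperones that assemble the base and the activators of the core passed nowhere at P23. Psmd5, a chaperone that holds ATPase subunits before they join, was at -0.66 (SE 0.40, adjusted p = 0.171) in DN-CLIM skin and -0.76 (SE 0.40, adjusted p = 0.112) in WT skin against P14 in limma. It had the widest errors of the tested members. Psmd9, a chaperone of another ATPase pair, was at 0.10 in DN-CLIM skin and 0.07 in WT skin. Psme1 was at 0.32 (SE 0.15, adjusted p = 0.0742) in DN-CLIM skin and 0.09 (SE 0.15, adjusted p = 0.648) in WT skin in limma, Psme3, which forms a nuclear activator, at 0.02 in DN-CLIM skin and -0.01 in WT skin, and Psme4, a large single-chain activator, at 0.24 in DN-CLIM skin and -0.01 in WT skin. Psme3ip1 was lower against P6 in DN-CLIM skin (-0.45, SE 0.12, adjusted p = 0.00273 in limma). In WT skin it was at -0.28 (SE 0.12, adjusted p = 0.0497) in limma, with adjusted p of 0.0928 without WT P6 replicate 2, 0.0784 without WT P6 replicate 4, 0.107 without WT P6 replicate 5, 0.0874 without WT P23 replicate 1, 0.157 without WT P23 replicate 2 and 0.0731 without WT P23 replicate 3.

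The calls of the genotypes were compared, since they rest on different arrays. Of the members lower at P23 against P14, 17 of 17 in DN-CLIM skin (100%) were lower in WT skin, and these are 85% of the 20 in WT skin. Over all tested probe sets the shared calls were 83.2% of those lower in DN-CLIM skin and 83.5% of those lower in WT skin. The other 3 members in WT skin were Psmc3 93734_i_at, Psma1 and Psmb4. Against P6, 17 of the 18 in DN-CLIM skin and of the 18 in WT skin were shared (94.4% of each), where over all tested probe sets it was 83.9% of those in DN-CLIM skin and 83.6% of those in WT skin. The direction of change against P14 was the same for 34 of 41 probe sets (82.9%, beside 88.6% of all tested probe sets), and Pearson's r of the changes across the 41 was 0.921, beside 0.957 across all tested, a description of probe sets measured on different arrays of the same age groups. The difference of the age change between genotypes was called for no member, with smallest adjusted p of 0.752 (P14 minus P6), 0.985 (P23 minus P14) and 0.993 (P23 minus P6) in limma, while 0.0161%, 0.0% and 0.0161% of all tested probe sets were called. At an unadjusted p under 0.05 there were 0, 0 and 1 members in the same order, with 6.7%, 5.1% and 4.88% of all tested probe sets.

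Of a list of 27 tested genes (33 probe sets) for assembly, shuttling, ubiquitin transfer, regulation and the immunoproteasome, 12 probe sets were higher and 5 lower at P23 against P14 in DN-CLIM skin, and 10 were higher and 4 lower in WT skin. Over all tested probe sets 27.1% were called higher and 27.2% lower in DN-CLIM skin, and 27.0% higher and 27.1% lower in WT skin. The median log2 change of the list was 0.16 in DN-CLIM skin and 0.08 in WT skin, beside 0.00 for all tested probe sets. Sem1, a small lid subunit whose symbol the naming rule misses, changed by -0.67 (SE 0.10, adjusted p = 9.04e-06) in DN-CLIM skin and -0.75 (SE 0.10, adjusted p = 2.04e-06) in WT skin in limma. Psmg1, a chaperone of the alpha ring, changed by -0.89 (SE 0.19, adjusted p = 0.000511) in DN-CLIM skin and -0.94 (SE 0.19, adjusted p = 0.000289) in WT skin in limma. Ube2s, a ubiquitin-conjugating enzyme of mitosis, changed by -0.64 in DN-CLIM skin and -1.07 in WT skin. All 3 genes passed as lower in both genotypes. Other ubiquitin-conjugating enzyme genes of the list, Ube2a, Ube2b, Ube2d2a, Ube2d3, Ube2e1 and Ube2g1, had higher mean signals at P23 than at P14 in both genotypes. These are means without their tests, and their sizes differed. Ube2a went from 8.03 at P14 to 8.12 at P23 in DN-CLIM skin and from 8.32 to 8.37 in WT skin. Ube2b went from 9.52 to 10.38 in DN-CLIM skin and from 9.60 to 10.35 in WT skin. The mean of Ube2c was lower at P23 in both genotypes, and that of Ube2n in WT skin only.

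Neither of the transcription factor genes NRF1 and NRF2 was called lower. Nfe2l1 was higher at 160535_at, by 0.28 (SE 0.08, adjusted p = 0.00864) in DN-CLIM skin and 0.42 (SE 0.08, adjusted p = 0.000275) in WT skin in limma. At 101757_at it was at -0.18 in DN-CLIM skin and -0.06 in WT skin, which did not pass. Nfe2l2, the gene of NRF2, was higher by 0.89 in DN-CLIM skin and 0.88 in WT skin. Usp14, a deubiquitinase that sits on the base, was higher by 0.76 in DN-CLIM skin and 0.68 in WT skin. Pomp, the maturation factor of the core, was higher in DN-CLIM skin (0.50, SE 0.14, adjusted p = 0.00367 in limma) and at 0.04 (SE 0.14, adjusted p = 0.813) in WT skin. The difference of this age change between genotypes was called for 0 of the 33 probe sets of the list, Pomp included. Of all tested probe sets, 0.0% were called.

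The interferon-induced catalytic subunits replace Psmb5, Psmb6 and Psmb7 in the immunoproteasome, and Psmb8, which takes the place of Psmb5, was far higher at P23. Psmb8 had log2 signals of 10.36, 10.39 and 10.23 in DN-CLIM skin and 9.93, 10.39 and 10.01 in WT skin at P23. Its P14 signals were 8.15, 7.96 and 8.51 in DN-CLIM skin and 8.58, 8.17 and 8.06 in WT skin. No P23 array came near the P14 arrays, and the change was 2.12 (SE 0.18, adjusted p = 2.8e-09) in DN-CLIM skin and 1.84 (SE 0.18, adjusted p = 2.31e-08) in WT skin in limma. Psmb10 was higher in WT skin (0.59, SE 0.23, adjusted p = 0.0328 in limma), with 0.41 (SE 0.23, adjusted p = 0.134) in DN-CLIM skin. Psmb9 was below the brightness limit over all arrays and was not tested, with mean log2 signals at P23 of 8.92 ± 0.20 in DN-CLIM skin and 8.71 ± 0.42 in WT skin, against 5.40 ± 0.17 in DN-CLIM skin and 5.83 ± 1.40 in WT skin at P14 (SD, n = 3 each).

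**Figure D5:**
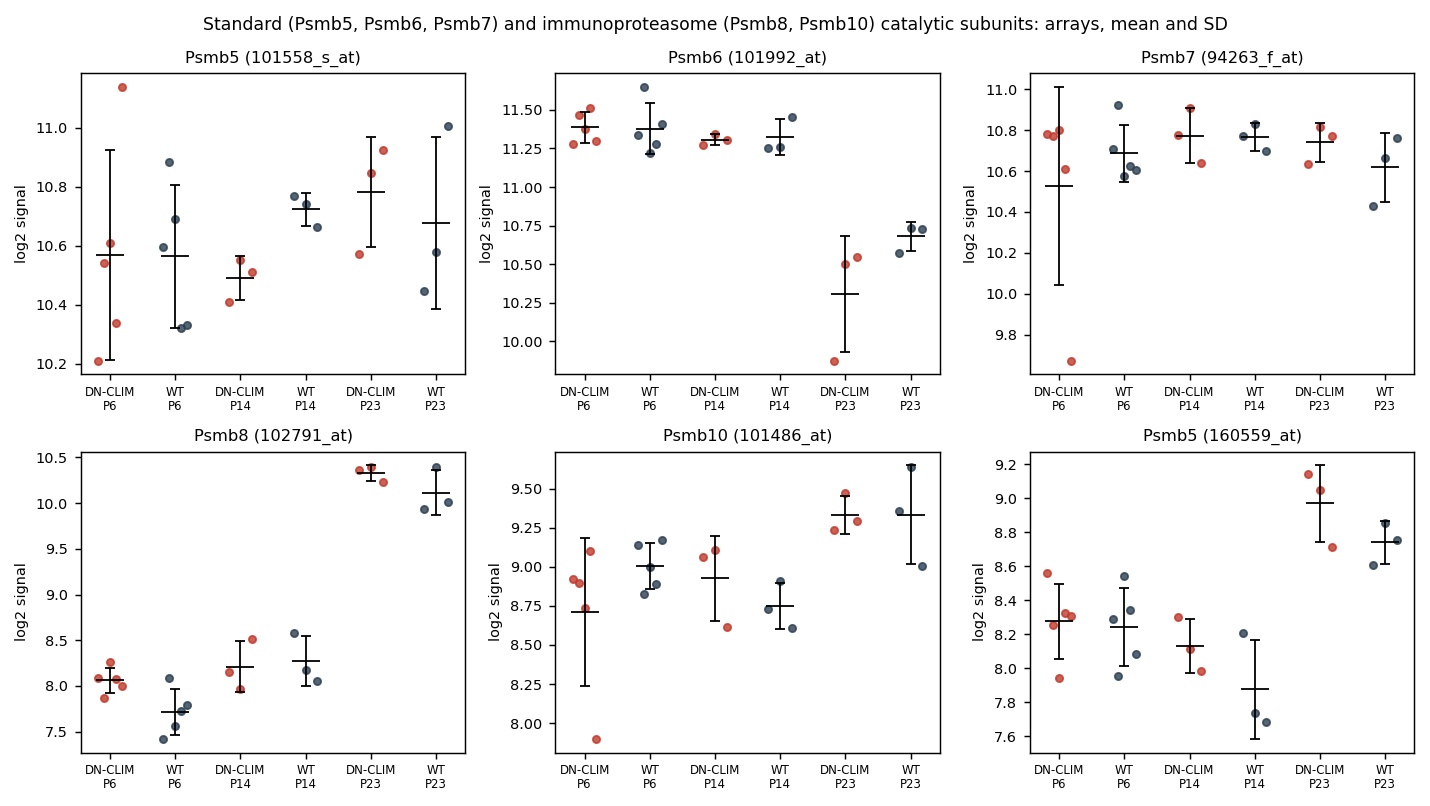
Log2 signal per array of the standard catalytic subunits Psmb5 (2 probe sets), Psmb6 and Psmb7 and of the immunoproteasome subunits Psmb8 and Psmb10, with group means and SD. At P23 Psmb6 lies low and Psmb8 high in both genotypes, Psmb7 overlaps its P14 arrays, and the panels of Psmb5 differ.

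Markers of other cell types moved with age as well. The summed signal of 10 hair shaft and matrix genes ranged from 3395 to 3593 in DN-CLIM skin and from 3324 to 3843 in WT skin at P23. At P14 it ranged from 197305 to 235316 in DN-CLIM skin and from 209326 to 241057 in WT skin. All 10 of these genes fell in both genotypes. The sum of 10 genes of cycling cells ranged from 4440 to 5062 in DN-CLIM skin and 4649 to 5461 in WT skin at P23, against 9239 to 10839 in DN-CLIM skin and 9469 to 10025 in WT skin at P14, and 9 of 10 in DN-CLIM skin and 8 of 10 in WT skin fell.

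The sum of 12 skeletal muscle genes ranged from 98041 to 107253 in DN-CLIM skin and 99084 to 122186 in WT skin at P23, against 28170 to 42319 in DN-CLIM skin and 35734 to 41777 in WT skin at P14. The sum of 11 leukocyte genes ranged from 10506 to 11325 in DN-CLIM skin and 11101 to 11856 in WT skin at P23, against 3912 to 4757 in DN-CLIM skin and 3726 to 4425 in WT skin at P14. The sum of 6 adipocyte genes ranged from 10813 to 14339 in DN-CLIM skin and 12404 to 15396 in WT skin at P23, against 6287 to 6637 in DN-CLIM skin and 5054 to 6060 in WT skin at P14. Passing as higher against P14 were 10 of 12 muscle, 6 of 7 tested leukocyte and 3 of 5 tested adipocyte genes in DN-CLIM skin, and 11, 7 and 3 in WT skin. In each genotype 1 muscle gene passed as lower. The summed signal of 4 erythroid genes overlapped between P23 and P14 in both genotypes, and 2 of 3 tested erythroid genes passed as lower in each. No marker signal was at 0. The part of these shifts in the fall of the proteasome genes and in the rise of Psmb8 was not tested.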

How the data were processed

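RNA of mouse back skin was measured on 22 single-colour Affymetrix arrays, which fall by the labels' genotype and age into 6 groups. The values are intensities: MAS5 signals per probe set on a linear scale, deposited by the authors in 1 table, per the submitters' processing notes, which give no MAS5 version. Each array had been scaled, as the deposited intensities show, to a mean near 500.3 after trimming 2% at each end. Array medians differed by less than 0.3 on the log2 scale, so the values were used as deposited. Saturation and detection calls are not used here, and the number of arrays limits the precision.

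The table holds 12488 probe sets, of which 66 are array controls. The platform annotation pairs 10855 with 1 gene, 396 with several and 1237 with none. Of the symbols, 10839 were looked up by Entrez ID and 0 changed. Probe sets in the upper 50% by mean log2 signal (at least 7.67, a signal of 203) were tested, 6211 in all. The log2 signals of all 22 arrays entered 1 linear model with a mean per group (limma 3.58.1, R 4.3.3, eBayes with trend), and p-values were adjusted by Benjamini-Hochberg over the 6211 with a threshold of 0.05. A change is a log2 difference of group means, n is the number of arrays per group, and different probe sets of a gene were kept apart. The fit was run on simulated data with independent noise for each probe set. That setting is simpler than these arrays and does not check the fit where an array stands apart. The deviations of same-numbered arrays of the 2 genotypes from their group means had r from -0.047 to 0.249 (11 pairs, 4 of them above 0.1). Differently numbered arrays were not compared in this way, so these values do not decide whether the pairs varied together. The labels give no pairing, and none was used in the main fit.

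The members, the pathway and marker lists and the tests were chosen with earlier results of these data known. The naming rule asked for changes of up to 12 called members in each direction by size. It also asked for the 3 smallest p where fewer than 3 passed, and for each tested probe set of a gene that has several. Some of these changes are left out here, among them most of those for the difference of the age change between genotypes. Other changes at P23 against the earlier ages fall outside the rule, such as those of Psma1, Psma2, Psmb4, Psmc1, Psmc2 and Psme3ip1 and most that did not pass. They were added with their values known, so that each ring and particle is complete. Alternatives were the normalization, the filter, the offset, the samples in the fit, array weights, P6 batches, the replicate block and leaving out each array. Sequences are promoter windows of RefSeq, assembly GRCm38.p6.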

Additional observations from a re-analysis of the deposited data

Results flagged for a closer look

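In the groups of 5 arrays at P6, 82 sets of member signals were examined for 1 array far from the other 4, and 9 had a gap to its nearest neighbour above 0.71 of the group's range, the critical value for 5 samples. Chance flags about 1 in 20 such groups. All 9 lie in DN-CLIM skin at P6, and 8 of them belong to replicate 5, the array with the lowest correlation with its group. On replicate 5 the log2 signal was lower than on the other 4 arrays for Psmc1 (8.668, others from 9.724 to 9.926), Psmc5 (9.854, others from 10.34 to 10.523), Psmb2 (11.06, others from 11.596 to 11.812), Psmb7 (9.674, others from 10.611 to 10.8) and Psma4 (10.516, others from 11.047 to 11.246). It was higher for Psmd6 (11.352, others from 10.576 to 10.764), Psma7 (12.05, others from 11.141 to 11.35) and Psmb4 (12.879, others from 11.89 to 12.106). So alpha ring, beta ring, ATPase and lid genes are among the 8, in both directions. On replicate 4 Psme1 was at 10.3, with the others from 10.666 to 10.811.

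Without replicate 5, no member passed between DN-CLIM and WT skin at P6 in limma, and 20 members passed between P23 and P6 in DN-CLIM skin, 17 lower and 3 higher.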

How the results depend on the processing

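The counts of members that passed between P23 and the earlier ages, and the counts of 0 between genotypes and for the differences between genotypes, stayed within 1.5 times their value under each alternative that was run. No named member or median with a call changed direction. For P23 against P14 the count ran from 17 to 25 in DN-CLIM skin (18 as reported) and from 19 to 25 in WT skin (22). For P23 against P6 it ran from 15 to 24 in DN-CLIM skin and from 18 to 23 in WT skin (19 in each). Leaving out 1 array gave 16 to 18 in DN-CLIM skin and 17 to 20 in WT skin for P23 against P14, 15 to 20 in DN-CLIM skin and 17 to 20 in WT skin for P23 against P6, and 0 between genotypes.

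The counts for P14 against P6, 2 in DN-CLIM skin and 1 in WT skin, moved. In DN-CLIM skin the count was 1 with the groups compared alone in the fit, 4 with array weights, 4 with P6 arrays 4 and 5 treated as a batch (not given by the labels), 6 with P6 arrays 1 to 3 alone and 8 with P6 arrays 4 and 5 alone. In WT skin it was 4, 4, 4, 8 and 0 in the same order, and 0 without the filter on dim probe sets. Leaving out 1 array gave 1 to 4 in DN-CLIM skin and 0 to 1 in WT skin. The cause was not tested. With the replicate block they were 4 in DN-CLIM skin and 6 in WT skin. The block gave 21 in DN-CLIM skin and 24 in WT skin for P23 against P14, 21 in DN-CLIM skin and 20 in WT skin for P23 against P6, and 0 between genotypes, and the pairing of arrays by number is not given by the labels. The replicate block changed no call between genotypes.

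Centring arrays on their medians moved the median change of all tested probe sets to -0.15 in DN-CLIM skin and -0.13 in WT skin for P23 against P6, and to -0.11 for the difference of the genotype effect, P14 minus P6. For P14 against P6 in DN-CLIM skin, 68.1% of all calls were then lower, beside 55.0% as deposited. Dim members limit what could be seen: 9 of the 50 probe sets lay below the limit and were not tested.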
